A study of Mus musculus with 12 samples.

Results

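The transcriptome of freshly isolated hindlimb muscle satellite cells, the resident stem cells of skeletal muscle, was compared between 3 male mice labelled Keap1 knockout (KO) and 3 male mice labelled heterozygous for Keap1 (Het). The labels write the control genotype as "Keap1 heterogeneous" and the titles as Hetz, which was read here as heterozygous, so that the controls also carry an altered Keap1 allele. These 6 libraries, named Hetz204, Hetz245, Hetz249, KO240, KO247 and KO255 after their animals, form 1 of the 2 deposited count tables. They are 6 of the 12 libraries of the series, whose other 6 come from female Het and KO animals. All animals were of the C57BL/6J strain, and the cells were frozen in liquid nitrogen at once after isolation. The labels give neither the age of the animals nor a promoter, a Cre driver or a tissue for the knockout, and they name no batch. The series asked how the KEAP1 and NRF2 pair shapes the upkeep of satellite cells and their activation in each sex. Libraries were made from total RNA by Smart-Seq2, which amplifies polyadenylated RNA without molecular identifiers, followed by fragmentation with the Tn5 transposase.

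KEAP1 is the substrate adaptor of a ubiquitin ligase that holds the transcription factor NRF2, encoded by Nfe2l2, at a low level. When cysteines of KEAP1 are modified by electrophiles, or KEAP1 is lost, NRF2 accumulates, pairs with small MAF proteins and binds antioxidant response elements. Its best known targets are enzymes of glutathione, quinone, NADPH and heme metabolism, and the genes described here are mainly those outside that list, with those of moderate size and low level included.

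Total counts in the 6 libraries ran from 13042039 to 19088651, with 19833 to 22016 genes detected. Values below are CPM, counts scaled to a common library size with TMM factors over the 6 libraries, and are given in the order of the library names above. CPM is not divided by gene length, so it compares libraries and not genes. Keap1 itself was at 9.62, 5.08 and 7.67 CPM in the Het libraries and 6.11, 7.46 and 7.38 CPM in the KO libraries, and these values overlapped. Its log2 fold change was -0.09 (SE 0.25, edgeR adjusted p = 0.936), with an exact two-sided permutation p of 0.8 where the smallest possible is 0.1, and without Hetz204 it was 0.12. The counts sum all exons of Keap1, of which 10.9% lie under another gene model, so they show neither which part was deleted nor how much protein was left. Nfe2l2 was at 427, 369 and 414 CPM in the Het libraries and 455, 436 and 458 CPM in the KO libraries, a log2 fold change of 0.16 (SE 0.12, edgeR adjusted p = 0.672). The labelled cell type was checked with 8 satellite cell markers, whose summed level was 13821 to 15977 CPM in Het and 15392 to 16705 CPM in KO. Most of this sum was Sdc4, at 8757, 10768 and 10861 CPM in Het and 10425, 11496 and 11709.9 CPM in KO. The sum therefore mainly follows 1 gene. Summed markers of fibro-adipogenic progenitors were at 2929 to 4526 CPM in Het and 3778 to 4523 CPM in KO. Those of pericytes and smooth muscle were at 1167 to 1309.7 CPM in Het and 984 to 1258 CPM in KO. Pax7 was at 17.1, 18.2 and 28.5 CPM in Het and 15.4, 9.75 and 21.5 CPM in KO. Of the 81 tested genes on 8 lists of other cell types, 0 were called by edgeR and 6 had an unadjusted p under 0.05. Over all tested genes these shares were 0.861% and 12.4%. For 81 genes, 0 calls is near the overall share and does not show that other cells were absent or equal. The summed markers of endothelium were at 338 to 365 CPM in Het and 227 to 540 CPM in KO, highest in KO255, and those of myofibres at 55.6 to 70.4 CPM in Het and 51.3 to 164.04 CPM in KO, highest in KO240. Counts on the 2 mitochondrial ribosomal RNAs took 0.4093 to 0.6013% of each Het library and 0.2256 to 0.4072% of each KO library, and the part of this difference in the results was not tested. Bulk RNA cannot tell fewer cells of a type from less RNA per cell.

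Of 13361 genes tested with edgeR's quasi-likelihood test, 115 (0.861%) had a Benjamini-Hochberg adjusted p under 0.05, the threshold for a call throughout. Of these, 94 genes (0.704%) were higher in KO and 21 (0.157%) were lower. Of the higher genes, 20 are best known NRF2 targets, and the other 74 ran from 1.47-fold to 146-fold higher. Among these 74, 36 were at least 2-fold higher and 38 less than 2-fold. The lower genes ran from 1.66-fold to 4.93-fold. The groups of 3 did not overlap for any of the 115, which is also true of 17.3% of all tested genes, 9.53% with KO above Het and 7.73% with KO below. The share of genes called rose with level, from 0.299% in the lowest of 4 equal bins of average level to 1.35% in the highest, and the median fold of the called genes went from 7.14 to 1.77. Called genes at a low level thus had mainly large changes, and the smallest called change was 0.56 on the log2 scale. The labels give each library an animal number of its own, and p-values measure the spread between these animals.

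**Figure D1:**
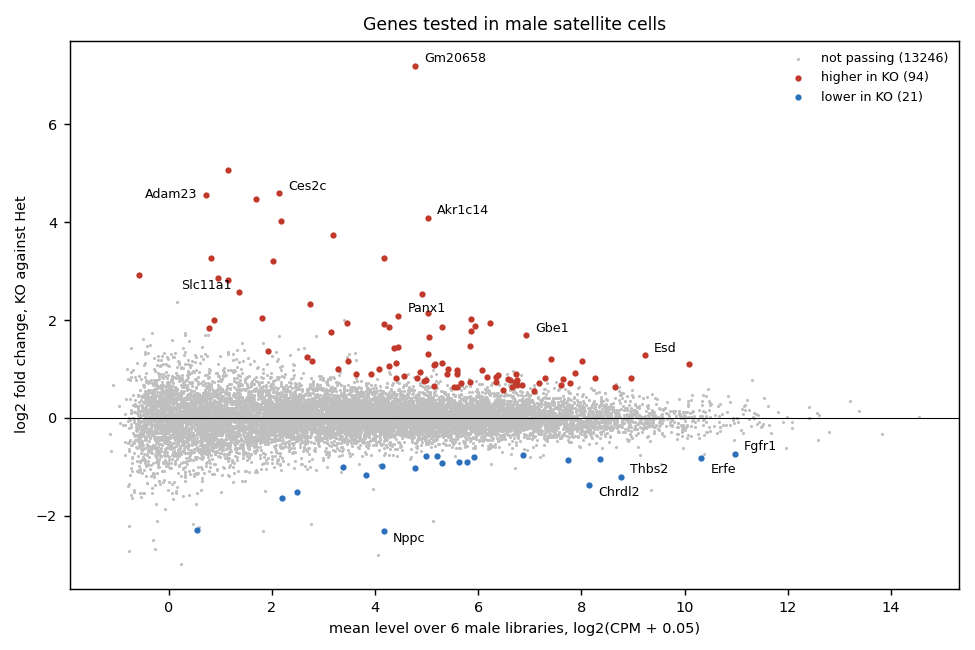
Log2 fold change between KO and Het (vertical axis) against the mean level over the 6 male libraries (horizontal axis, log2 of CPM plus a small constant), for the 13361 tested genes. Red points are the 94 called higher genes, blue points the 21 called lower genes and grey points the rest. Called genes at the left lie far from 0, and those at the right reach down to changes of less than 2-fold.

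Enzymes that hydrolyse or reduce carbonyl compounds and esters held the largest changes outside the best known targets. Ces2c (chr8:104847068-104854483, GRCm38), a carboxylesterase of the endoplasmic reticulum, was at 0.379, 0.214 and 0.435 CPM in the Het libraries and 8.49, 8.68 and 7.89 CPM in the KO libraries. It was close to 0 in every Het library and rose 24.1-fold (log2 fold change 4.59, SE 0.33, edgeR adjusted p = 1.15e-05). Akr1c14 (chr13:4049011-4090688), an aldo-keto reductase that acts on steroid hormones, was at 5.53, 3.31 and 2.23 CPM in the Het libraries and 73.4, 54.3 and 57 CPM in the KO libraries. The rise was 17-fold (log2 fold change 4.09, SE 0.27, edgeR adjusted p = 1.15e-05), with a 95% interval of 3.50 to 4.69 on the log2 scale. Pla2g7 (chr17:43568098-43612201), a secreted phospholipase that cleaves platelet-activating factor and oxidised phospholipids, was at 1.21, 1.39 and 1.14 CPM in the Het libraries and 23.2, 12.6 and 14.3 CPM in the KO libraries. The 3 Het values lay close together, the KO values spread more, and the change was 13.3-fold (log2 fold change 3.73, SE 0.29, edgeR adjusted p = 1.81e-05). Another gene model covers 11% of the exonic bases of Pla2g7, which makes its level less certain. Esd, the hydrolase that frees glutathione from S-formylglutathione, was at 358, 348 and 345 CPM in the Het libraries and 925, 1001 and 619 CPM in the KO libraries. KO255 stood lower than the other KO libraries, and the rise was 2.42-fold (log2 fold change 1.28, SE 0.17, edgeR adjusted p = 0.00173). These calls for Ces2c, Akr1c14, Pla2g7 and Esd were made in all 11 alternative analyses.

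Ces1d, another carboxylesterase, was at 0.833, 0.374 and 0.218 CPM in the Het libraries and 4.08, 4.66 and 1.22 CPM in the KO libraries. Its rise of 7.21-fold (log2 fold change 2.85, SE 0.58, edgeR adjusted p = 0.0403) was uneven, with KO255 near the highest Het library, and the call was lost without Hetz204, Hetz245, Hetz249, KO240 or KO247 (edgeR adjusted p = 0.0653 to 0.246) and under limma voom. Adh1, an alcohol dehydrogenase, was at 28.6, 19.5 and 19.9 CPM in the Het libraries and 60.7, 43.7 and 38.4 CPM in the KO libraries. It rose 2.11-fold (log2 fold change 1.07, SE 0.20, edgeR adjusted p = 0.026), a call lost without Hetz245, Hetz249 or KO240 (edgeR adjusted p = 0.122 to 0.222). The list of carboxylesterases, lipases and other hydrolases had 4 of 22 tested members higher and 0 lower, with a median log2 fold change of 0.07, beside 0.01 for all tested genes. An unadjusted p under 0.05 was found for 7 of these 22. The list of carbonyl and aldo-keto reductases and dehydrogenases outside the best known targets had 2 of 36 higher and 0 lower. Its median was 0.14, and 9 of the 36 had an unadjusted p under 0.05. The 32 tested cytochrome P450, flavin oxidase and conjugating enzymes had 0 calls by edgeR, 6 with an unadjusted p under 0.05, and a median of 0.17. Over all tested genes 0.861% were called and 12.4% had an unadjusted p under 0.05, the shares to set beside each list. Large changes in this group of enzymes were thus limited to a few members, and most members did not pass.

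Genes of glycogen, metal and stress metabolism formed the next group. Gbe1, the branching enzyme that completes the glycogen particle, was at 62.9, 58.1 and 52.3 CPM in the Het libraries and 207, 218 and 134 CPM in the KO libraries. KO255 was the lowest KO library and still above every Het library, and the rise was 3.23-fold (log2 fold change 1.69, SE 0.18, edgeR adjusted p = 0.000278). Of the 24 tested glycogen and nucleotide sugar enzymes, 1 was higher, 0 were lower and the median was 0.13. Slc11a1, a divalent metal transporter of phagosomes, was at 0.758, 0.748 and 0.653 CPM in the Het libraries and 4.35, 3.37 and 5.13 CPM in the KO libraries. This was 5.92-fold (log2 fold change 2.57, SE 0.33, edgeR adjusted p = 0.00162), from 36 fragments in the Het libraries together and 191 in the KO libraries. The summed markers of leukocytes, which express Slc11a1, were at 29.5 to 101 CPM in Het and 60.6 to 76.1 CPM in KO. Slc11a1 was the 1 called member among 27 tested genes of heme, iron and metal handling, whose median was 0.11. Scara5, a scavenger receptor for ferritin that is on none of the lists, was at 26.9, 30.8 and 33.7 CPM in the Het libraries and 95.2, 61.4 and 95.9 CPM in the KO libraries. The rise was 2.76-fold (log2 fold change 1.47, SE 0.18, edgeR adjusted p = 0.000951), and KO247 lay below the other KO libraries.

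Ddit4l, an inhibitor of the growth kinase mTORC1, was at 21.8, 15.5 and 13.5 CPM in the Het libraries and 59.6, 74.2 and 49.3 CPM in the KO libraries. It rose 3.61-fold (log2 fold change 1.85, SE 0.20, edgeR adjusted p = 0.000412). Gdf15, a secreted stress cytokine, was at 24.9, 23.9 and 25.5 CPM in the Het libraries and 59.8, 50.1 and 51.8 CPM in the KO libraries. Its Het values were nearly equal, and it rose 2.18-fold (log2 fold change 1.12, SE 0.14, edgeR adjusted p = 0.000951). Both belong to the list of ATF4 and integrated stress response genes, in which 2 of 26 tested members were higher, 0 were lower and the median was 0.20. Of these 26, 9 had an unadjusted p under 0.05, beside 12.4% of all tested genes. Their log2 fold change was above 0 in 19 and below 0 in 7. Asns, which encodes asparagine synthetase and is a much used reporter of that response, had a log2 fold change of 0.37 (SE 0.20, edgeR adjusted p = 0.486). Casp12, a caspase associated with the endoplasmic reticulum, was at 20.7, 19.1 and 16.3 CPM in the Het libraries and 52.1, 38.1 and 49.1 CPM in the KO libraries. It rose 2.49-fold (log2 fold change 1.31, SE 0.16, edgeR adjusted p = 0.00116). The 23 tested chaperones of that compartment had 0 calls by edgeR, 3 with an unadjusted p under 0.05, and a median of -0.15. Ikbkg, which encodes the regulatory subunit NEMO of the kinase complex that activates NF-kB, was at 11.1, 11.1 and 11.3 CPM in the Het libraries and 31.2, 30.3 and 28.9 CPM in the KO libraries. Both groups were tight, and the rise was 2.7-fold (log2 fold change 1.43, SE 0.15, edgeR adjusted p = 0.000278). The 31 tested chemokines, cytokines and feedback genes of NF-kB had 0 calls by edgeR, 8 with an unadjusted p under 0.05, and a median of 0.09. With 0.861% of all tested genes called, 0 calls is near the overall share for lists of 23 and 31 genes. Of all tested genes 12.4% had an unadjusted p under 0.05. All 4 calls, for Ddit4l, Gdf15, Casp12 and Ikbkg, were made in every alternative.

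Genes of membrane channels, adhesion and the cytoskeleton came next. Panx1, a large-pore channel that releases ATP, was at 9.24, 8.98 and 6.75 CPM in the Het libraries and 37.6, 28.3 and 39.8 CPM in the KO libraries. It rose 4.25-fold (log2 fold change 2.09, SE 0.19, edgeR adjusted p = 0.000104), and no other of the 40 tested calcium release, pump and channel genes was called higher. An unadjusted p under 0.05 was found for 11 of these 40, beside 12.4% of all tested genes. Cd151, a tetraspanin that binds laminin-binding integrins, was at 43.6, 46.9 and 45.7 CPM in the Het libraries and 85.7, 91.1 and 92.6 CPM in the KO libraries. The spread within each group was small, and the rise of 1.98-fold (log2 fold change 0.98, SE 0.12, edgeR adjusted p = 0.00113) was the 1 change of less than 2-fold that was called in all alternatives. Cap2, which recycles actin monomers, was at 23, 24.7 and 20 CPM in the Het libraries and 52.5, 49.1 and 44.2 CPM in the KO libraries. It rose 2.15-fold (log2 fold change 1.11, SE 0.15, edgeR adjusted p = 0.00173). Sept10, a member of the filament-forming septins, was at 26, 29 and 29.3 CPM in the Het libraries and 55.6, 52.3 and 61.3 CPM in the KO libraries. It rose 2.01-fold (log2 fold change 1.0, SE 0.14, edgeR adjusted p = 0.00209). Tex2, a lipid-binding protein of the endoplasmic reticulum, was at 55.8, 57.7 and 63.6 CPM in the Het libraries and 113, 104 and 107 CPM in the KO libraries. Its rise of 1.83-fold (log2 fold change 0.87, SE 0.12, edgeR adjusted p = 0.00316) was lost without KO240 (edgeR adjusted p = 0.0543). Dusp13, a dual-specificity phosphatase of muscle and testis, was at 1.14, 0.641 and 0.599 CPM in the Het libraries and 8.9, 8.03 and 4.62 CPM in the KO libraries. It rose 9.23-fold (log2 fold change 3.21, SE 0.36, edgeR adjusted p = 0.000578), and 10.2% of its exonic bases lie under another gene model.

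**Figure D2:**
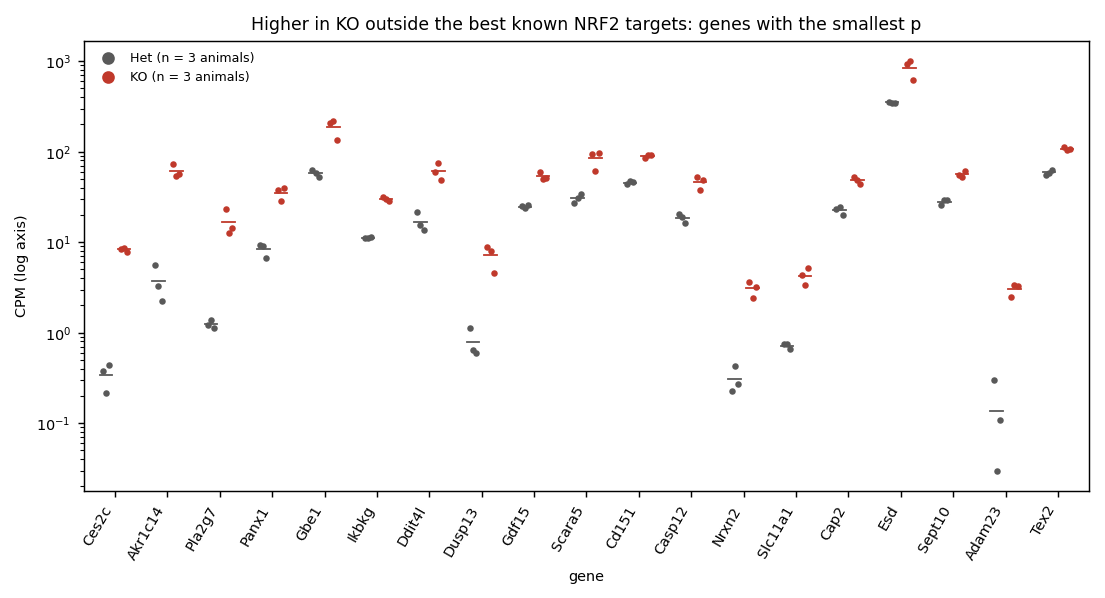
Level in CPM (vertical axis, logarithmic) of higher genes with the smallest p outside the best known NRF2 targets. Points are single animals, grey for Het and red for KO, bars are group means, and a library at 0 is drawn at the lower edge. In each gene the 3 red points lie above the 3 grey points, and Pla2g7 and Dusp13 show the widest red groups.

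Higher genes of lowest average level outside the best known targets lay at the edge of detection, with Het means from 0.137 CPM for Adam23 to 1.35 CPM for Btc among those described, where a library with 3 fragments stands at 0.1603 to 0.2273 CPM. Adam23, an adhesion protein without protease activity, had 4, 0 and 2 fragments in the Het libraries and 37, 47 and 51 in the KO libraries. The fitted change was 23.5-fold (log2 fold change 4.56, SE 0.62, edgeR adjusted p = 0.00225). Nrxn2, a presynaptic adhesion protein, had 3, 8 and 5 fragments in Het and 54, 34 and 50 in KO. It rose 9.64-fold (log2 fold change 3.27, SE 0.42, edgeR adjusted p = 0.00162). Both genes and Slc11a1 were under 1 CPM in every Het library and above 2 CPM in every KO library.

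Btc, which encodes the growth factor betacellulin, had 23, 23 and 20 fragments in Het and 82, 71 and 91 in KO. It rose 4.1-fold (log2 fold change 2.04, SE 0.29, edgeR adjusted p = 0.00337), again in all alternatives. Ereg, for epiregulin, a ligand of the same receptor family, was at 9.62, 10.6 and 13.3 CPM in the Het libraries and 23.6, 21.2 and 23 CPM in the KO libraries. It rose 2.01-fold (log2 fold change 1.01, SE 0.17, edgeR adjusted p = 0.0162), a call lost without Hetz204, Hetz245 or KO240 (edgeR adjusted p = 0.0873 to 0.131). Vegfd, a growth factor for lymphatic vessels, had 2, 2 and 3 fragments in Het and 16, 13 and 20 in KO. Its change of 7.54-fold (log2 fold change 2.91, SE 0.58, edgeR adjusted p = 0.0349) was lost without Hetz204, Hetz245, Hetz249, KO240 or KO255 (edgeR adjusted p = 0.0667 to 0.205) and under the fit of all 12 libraries. Fbxo2, an F-box protein for glycoproteins, was at 0.53, 0.641 and 0.925 CPM in the Het libraries and 3.26, 2.87 and 2.5 CPM in the KO libraries. The rise of 4.03-fold (log2 fold change 2.01, SE 0.37, edgeR adjusted p = 0.0259) was lost without Hetz204, Hetz245, Hetz249 or KO240 (edgeR adjusted p = 0.0691 to 0.17). Klhl31, a Kelch protein of striated muscle, was at 0.758, 0.748 and 0.653 CPM in the Het libraries and 2.65, 2.37 and 2.76 CPM in the KO libraries. The rise of 3.58-fold (log2 fold change 1.84, SE 0.36, edgeR adjusted p = 0.0306) was lost without Hetz204, Hetz245, Hetz249 or KO240 (edgeR adjusted p = 0.112 to 0.183) and under the fit of all 12 libraries. Fetub, for the metalloproteinase inhibitor fetuin-B, was at 1.21, 0.374 and 0.109 CPM in the Het libraries and 3.06, 3.23 and 4.94 CPM in the KO libraries. Its rise of 7.06-fold (log2 fold change 2.82, SE 0.57, edgeR adjusted p = 0.0379) was lost without Hetz245, Hetz249 or KO240 (edgeR adjusted p = 0.122 to 0.16). The changes of Btc, Vegfd, Fbxo2, Klhl31 and Fetub rest on counts of at most 91 fragments in any library.

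The start sites of the called genes were searched for 2 letter patterns of the antioxidant response element, TGACNNNGC and the stricter pair TGACTCAGC or TGAGTCAGC, on both strands. TGACTCAGC is also a match to the first pattern and TGAGTCAGC is not. Of the 94 higher genes, 70 had a promoter window of 300 bases, 250 before and 50 after the start, in the RefSeq table (GRCm38.p6), and 15 of the 21 lower genes had one. The first pattern was in 18.6% of the 70 higher genes and in 17% of all 9713 tested genes with a window. The stricter pair was in 10% of the higher genes, in 0.968% of all, in 23.5% of the 17 best known targets among them and in 5.66% of the 53 others, which are 3 genes, Ikbkg, Dusp13 and, named after its values were seen, Htatip2. It was in 0 of the 15 lower genes. The 6 sequences around a match below make these patterns visible in genes whose values per library are given here, 5 from higher genes and that of Ucp2 from a lower gene. Each is read 5′ to 3′ on the strand of its gene, with the matching 9 bases in capitals. The matches begin 2, 38, 46, 74, 58 and 66 bases before the start site, in the order shown.
Pla2g7, chr17:43568389-43568458, plus strand: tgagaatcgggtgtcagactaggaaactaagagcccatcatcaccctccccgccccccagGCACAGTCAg
Ikbkg, chrX:74424514-74424619, plus strand: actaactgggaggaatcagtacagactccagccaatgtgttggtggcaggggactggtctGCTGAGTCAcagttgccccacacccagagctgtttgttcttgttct
Ddit4l, chr3:137623566-137623674, plus strand: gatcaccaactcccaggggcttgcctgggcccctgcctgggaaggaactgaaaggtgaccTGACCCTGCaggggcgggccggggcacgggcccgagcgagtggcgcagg
Dusp13, chr14:21748648-21748756, minus strand: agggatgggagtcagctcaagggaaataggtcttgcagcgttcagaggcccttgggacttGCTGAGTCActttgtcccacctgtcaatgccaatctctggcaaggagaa
Casp12, chr9:5345358-5345466, plus strand: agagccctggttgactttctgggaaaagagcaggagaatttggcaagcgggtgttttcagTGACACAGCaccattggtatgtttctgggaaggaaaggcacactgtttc
Ucp2, chr7:100493232-100493340, plus strand: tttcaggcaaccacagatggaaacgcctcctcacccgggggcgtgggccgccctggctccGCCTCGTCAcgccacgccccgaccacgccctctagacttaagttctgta
Ikbkg and Dusp13 hold the same 9 bases, the stricter pattern on the opposite strand. A match describes letters in this window and no binding was measured.

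The 38 called genes outside the best known targets that rose by less than 2-fold had Het means of 10.5 to 359.5 CPM. Zadh2, a prostaglandin reductase, was at 77.7, 61.8 and 82.1 CPM in the Het libraries and 148, 130.5 and 137 CPM in the KO libraries. It rose 1.87-fold (log2 fold change 0.91, SE 0.14, edgeR adjusted p = 0.0056), a call lost without KO240 (edgeR adjusted p = 0.0749). Mapt, which encodes the microtubule-binding protein tau, was at 20.6, 17.5 and 21.7 CPM in the Het libraries and 37.8, 38.1 and 38.8 CPM in the KO libraries. The KO values were almost equal, and the rise of 1.92-fold (log2 fold change 0.94, SE 0.14, edgeR adjusted p = 0.00634) was lost without Hetz245 or KO240 (edgeR adjusted p = 0.0527 to 0.0604). Cdc42ep3, an effector of the GTPase CDC42, was at 40.8, 31 and 29.3 CPM in the Het libraries and 62.8, 56.3 and 69.1 CPM in the KO libraries. It rose 1.87-fold (log2 fold change 0.90, SE 0.16, edgeR adjusted p = 0.0171), a call lost without Hetz245, Hetz249 or KO240 (edgeR adjusted p = 0.0954 to 0.165). In each of these 3 genes the lowest KO library stood above the highest Het library, but the groups were apart in all 115 called genes.

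Regulators of growth signalling and volume were also in this range. Rraga, a Rag GTPase that brings mTORC1 to the lysosome, was at 62, 78 and 76.4 CPM in the Het libraries and 108, 137 and 123 CPM in the KO libraries. It rose 1.7-fold (log2 fold change 0.77, SE 0.14, edgeR adjusted p = 0.0259), a call lost without Hetz204, Hetz245, Hetz249 or KO240 (edgeR adjusted p = 0.071 to 0.198). Klf13, a zinc finger transcription factor, was at 97.8, 137 and 106 CPM in the Het libraries and 203, 193 and 203 CPM in the KO libraries. The 3 KO values were close, and the rise of 1.76-fold (log2 fold change 0.81, SE 0.14, edgeR adjusted p = 0.0171) was lost without Hetz204, Hetz249 or KO240 (edgeR adjusted p = 0.151 to 0.183) and under the fit of all 12 libraries. Lrrc8a, the required subunit of the volume-regulated anion channel, was at 311, 364 and 404 CPM in the Het libraries and 662, 687 and 564 CPM in the KO libraries. It rose 1.77-fold (log2 fold change 0.83, SE 0.14, edgeR adjusted p = 0.0146), a call lost without Hetz204, Hetz245, Hetz249 or KO240 (edgeR adjusted p = 0.0583 to 0.154) and under the fit of all 12 libraries. Rap2b, a small GTPase, was at 50.2, 58.9 and 44.9 CPM in the Het libraries and 87.2, 104 and 86 CPM in the KO libraries. The rise of 1.8-fold (log2 fold change 0.85, SE 0.14, edgeR adjusted p = 0.0146) was lost without Hetz204, Hetz249 or KO240 (edgeR adjusted p = 0.0906 to 0.164) and under the fit of all 12 libraries. Lrrc8a and Rap2b share 68.3% and 58.3% of their exonic bases with other gene models, and reads in shared bases were not counted, so their levels are uncertain.

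Phactr2, a regulator of phosphatase 1 and actin, was at 77.4, 93.2 and 68.2 CPM in the Het libraries and 149, 135 and 123 CPM in the KO libraries. It rose 1.71-fold (log2 fold change 0.77, SE 0.14, edgeR adjusted p = 0.0259), a call lost without Hetz204, Hetz249 or KO240 (edgeR adjusted p = 0.198 to 0.24) and under the fit of all 12 libraries. Elmod2, a GTPase-activating protein of the ARF family, was at 17.6, 15.6 and 16.9 CPM in the Het libraries and 31.8, 25.4 and 33.6 CPM in the KO libraries. The rise of 1.82-fold (log2 fold change 0.86, SE 0.16, edgeR adjusted p = 0.0259) was lost without Hetz204, Hetz245, Hetz249 or KO240 (edgeR adjusted p = 0.118 to 0.192). Tmem43, a protein of the inner nuclear membrane, was at 108, 116 and 104 CPM in the Het libraries and 203, 176 and 158 CPM in the KO libraries. It rose 1.64-fold (log2 fold change 0.71, SE 0.13, edgeR adjusted p = 0.0239), a call lost without Hetz204, Hetz245, Hetz249 or KO240 (edgeR adjusted p = 0.0774 to 0.243). Prrc1 was at 76.4, 84 and 78.2 CPM in the Het libraries and 130.2, 119.8 and 146 CPM in the KO libraries. Its rise of 1.66-fold (log2 fold change 0.73, SE 0.13, edgeR adjusted p = 0.0159) was lost without Hetz204, Hetz245, Hetz249 or KO240 (edgeR adjusted p = 0.0597 to 0.155). The 54 tested small GTPase regulators and actin genes had 1 member higher (Cdc42ep3), 1 lower (Arhgap20) and a median of 0.19. An unadjusted p under 0.05 was found for 12 of these 54, beside 12.4% of all tested genes. Of the 38 genes, 37 were not called without KO240, 34 without Hetz249, 33 without Hetz204 and 30 without Hetz245, but 1 was not called without KO247 and 0 without KO255. The alternative p-values of the named genes stand beside them above, and in each analysis without a library all 115 changes kept their sign.

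**Figure D3:**
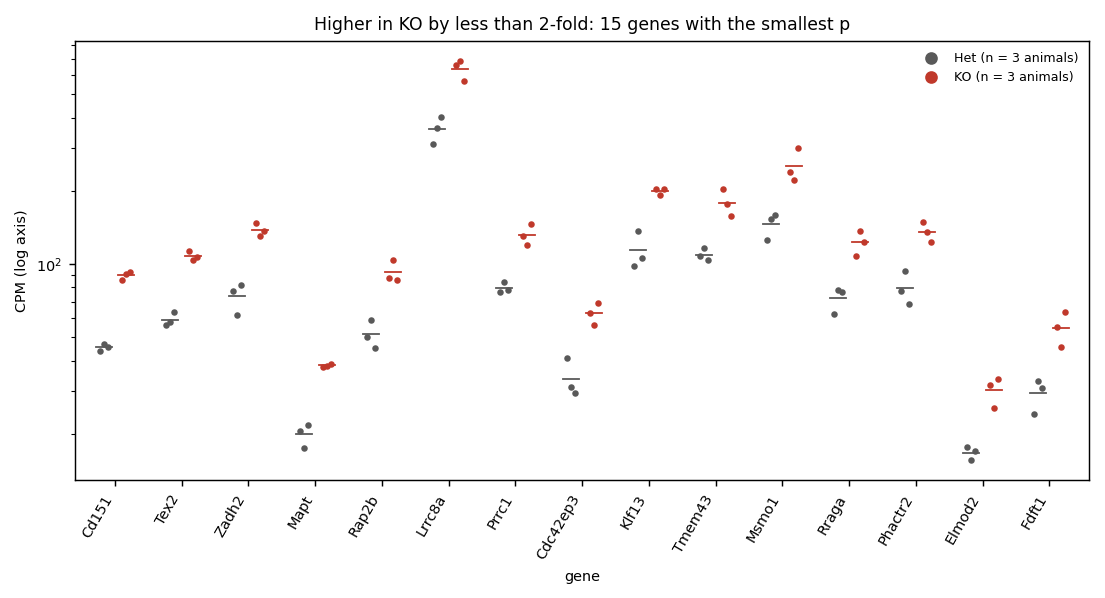
Level in CPM (vertical axis, logarithmic) of the 15 genes with the smallest p among those that were higher by less than 2-fold outside the best known NRF2 targets. Points are single animals, grey for Het and red for KO, and bars are group means. The 2 groups are separate in each gene with gaps much narrower than those of Ces2c or Akr1c14.

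Cholesterol synthesis was the pathway with the highest median after the best known targets. Of its 25 tested genes, 3 were higher, 0 were lower, 20 had a log2 fold change above 0 and 13 had an unadjusted p under 0.05, beside 12.4% of all tested genes. The median was 0.35. Msmo1, which removes methyl groups at carbon 4 of the sterol ring, was at 126, 153 and 159 CPM in the Het libraries and 238, 222 and 300.1 CPM in the KO libraries. It rose 1.73-fold (log2 fold change 0.79, SE 0.15, edgeR adjusted p = 0.0259), a call lost without Hetz204, Hetz245, Hetz249 or KO240 (edgeR adjusted p = 0.0896 to 0.195). Fdft1, squalene synthase, was at 24.1, 33.1 and 30.7 CPM in the Het libraries and 55.1, 45.3 and 63.4 CPM in the KO libraries. The rise of 1.86-fold (log2 fold change 0.89, SE 0.17, edgeR adjusted p = 0.0259) was lost without Hetz204, Hetz245, Hetz249 or KO240 (edgeR adjusted p = 0.0558 to 0.184) and under the fit of all 12 libraries, and 18.8% of its exonic bases lie under another model. Idi1, isopentenyl diphosphate isomerase, was at 37.7, 48.2 and 42.4 CPM in the Het libraries and 70.4, 62.8 and 80.1 CPM in the KO libraries. It rose 1.66-fold (log2 fold change 0.73, SE 0.15, edgeR adjusted p = 0.0349), a call lost without Hetz204, Hetz245, Hetz249 or KO240 (edgeR adjusted p = 0.0689 to 0.261) and under the fit of all 12 libraries. In all 3 genes KO247 was the lowest KO library and KO255 the highest. Hmgcs1, which makes the precursor of mevalonate, had a log2 fold change of 0.50 (SE 0.15, edgeR adjusted p = 0.197) and did not pass. The 22 tested genes of fatty acid synthesis had 0 calls by edgeR, 4 with an unadjusted p under 0.05, and a median of 0.05.

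Of the 21 lower genes, Nppc and Chrdl2, which both encode secreted proteins, had the smallest p. Nppc (chr1:86666291-86670571), which encodes C-type natriuretic peptide, was at 32.4, 31.4 and 25.6 CPM in the Het libraries and 6.39, 8.25 and 3.53 CPM in the KO libraries. Every KO library was far below the lowest Het library, and the gene fell 4.93-fold (log2 fold change -2.30, SE 0.25, edgeR adjusted p = 0.000516). Chrdl2 (chr7:100006172-100034728), a secreted antagonist of bone morphogenetic proteins and a marker of satellite cells, was at 403, 394 and 429 CPM in the Het libraries and 189, 175 and 110.1 CPM in the KO libraries. It fell 2.59-fold (log2 fold change -1.37, SE 0.18, edgeR adjusted p = 0.00162), with KO255 the lowest. Nppc and Chrdl2 were the 2 lower genes called in all 11 alternatives. Id1, a target of bone morphogenetic protein signalling, was at 220.2, 259 and 352 CPM in the Het libraries and 125, 179 and 153 CPM in the KO libraries. It fell 1.82-fold (log2 fold change -0.86, SE 0.18, edgeR adjusted p = 0.0475), a call lost without Hetz204, Hetz245, Hetz249, KO240 or KO255 (edgeR adjusted p = 0.0573 to 0.319) and under limma voom, the fit of all 12 libraries. Id2 had a log2 fold change of -0.33 (SE 0.12, edgeR adjusted p = 0.29) and Id4 of -0.88 (SE 0.27, edgeR adjusted p = 0.197). Of the 26 tested bone morphogenetic protein and Id genes, 0 were higher, 2 were lower and the median was -0.05. An unadjusted p under 0.05 was found for 8 of these 26, beside 12.4% of all tested genes. Erfe, which encodes the hormone erythroferrone, was at 1545, 1563 and 1811 CPM in the Het libraries and 885, 716 and 1186 CPM in the KO libraries. It fell 1.77-fold (log2 fold change -0.82, SE 0.17, edgeR adjusted p = 0.0498), a call lost without Hetz204, Hetz245, Hetz249, KO240 or KO247 (edgeR adjusted p = 0.0627 to 0.303) and under the fit of all 12 libraries, and 12.7% of its exonic bases lie under another model.

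Growth factor receptors and their partners were also among the lower genes. Fgfr1, a main receptor for fibroblast growth factors in satellite cells, was at 2559, 2156 and 2830 CPM in the Het libraries and 1484, 1534 and 1535 CPM in the KO libraries. The 3 KO values lay close together, and the fall of 1.66-fold (log2 fold change -0.73, SE 0.14, edgeR adjusted p = 0.0287) was lost without Hetz204, Hetz249 or KO240 (edgeR adjusted p = 0.154 to 0.234) and under the fit of all 12 libraries. Gfra1, the co-receptor for glial cell line-derived neurotrophic factor, was at 49.3, 65.1 and 78 CPM in the Het libraries and 35.5, 35.4 and 33 CPM in the KO libraries. It fell 1.85-fold (log2 fold change -0.89, SE 0.16, edgeR adjusted p = 0.0259), a call lost without Hetz245, Hetz249 or KO240 (edgeR adjusted p = 0.0954 to 0.183). Sdc1, a heparan sulphate proteoglycan, was at 41.1, 54.7 and 42.9 CPM in the Het libraries and 26.6, 26.5 and 28 CPM in the KO libraries. It fell 1.71-fold (log2 fold change -0.77, SE 0.15, edgeR adjusted p = 0.0296), a call lost without Hetz204, Hetz245, Hetz249 or KO240 (edgeR adjusted p = 0.0702 to 0.204). The 44 tested growth factor receptor and MAP kinase feedback genes had 1 member higher (Ereg), 1 lower (Fgfr1), 11 with an unadjusted p under 0.05, and a median of 0.01. Of the 33 tested genes of satellite cell identity and quiescence, 0 were higher, 2 were lower (Chrdl2 and Fgfr1) and 8 had an unadjusted p under 0.05. The median was -0.11, with Pax7 at a log2 fold change of -0.45 (SE 0.28, edgeR adjusted p = 0.576) and Myf5 at 0.31 (SE 0.14, edgeR adjusted p = 0.379). Over all tested genes 12.4% had an unadjusted p under 0.05.

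Matrix proteins and their processing enzymes made a further group of lower genes. Thbs2, a matricellular thrombospondin, was at 494, 459 and 866 CPM in the Het libraries and 278, 219.8 and 296 CPM in the KO libraries. Hetz249 was far above the other Het libraries, and the fall of 2.29-fold (log2 fold change -1.20, SE 0.23, edgeR adjusted p = 0.0352) was lost without Hetz249, KO240, KO247 or KO255 (edgeR adjusted p = 0.0637 to 0.144). Emilin1, an elastic fibre glycoprotein, was at 38.7, 44.2 and 37.8 CPM in the Het libraries and 27, 19.1 and 24 CPM in the KO libraries. It fell 1.72-fold (log2 fold change -0.78, SE 0.16, edgeR adjusted p = 0.04), a call lost without Hetz204, Hetz245, Hetz249, KO240 or KO247 (edgeR adjusted p = 0.0514 to 0.166) and under the fit of all 12 libraries. Pcsk5, a proprotein convertase, was at 52, 46.4 and 54.9 CPM in the Het libraries and 27.6, 18.7 and 34.6 CPM in the KO libraries. The fall of 1.89-fold (log2 fold change -0.92, SE 0.19, edgeR adjusted p = 0.0475) was lost without Hetz204, Hetz245, Hetz249 or KO240 (edgeR adjusted p = 0.106 to 0.241). The summed markers of fibro-adipogenic progenitors, another source of matrix in muscle, were at 2929 to 4526 CPM in Het and 3778 to 4523 CPM in KO, with 0 of 15 called. The 28 tested collagens had 0 calls by edgeR, 2 with an unadjusted p under 0.05, and a median of -0.08. The 27 tested TGF-beta genes had 1 lower member, Thbs2, 6 with an unadjusted p under 0.05, and a median of -0.08.

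Calcium, transport and mitochondrial genes completed the lower set. Ryr3, a calcium release channel, was at 17.7, 17.2 and 23.6 CPM in the Het libraries and 9.78, 8.1 and 8.21 CPM in the KO libraries. It fell 2.24-fold (log2 fold change -1.17, SE 0.19, edgeR adjusted p = 0.011), a call lost without Hetz249 (edgeR adjusted p = 0.09). Slc38a3, a glutamine transporter, was at 5.3, 8.55 and 6.8 CPM in the Het libraries and 2.99, 2.01 and 1.67 CPM in the KO libraries. The fall of 3.11-fold (log2 fold change -1.64, SE 0.30, edgeR adjusted p = 0.0232) was lost without Hetz245 or Hetz249 (edgeR adjusted p = 0.113 to 0.123) and under the fit of all 12 libraries. Ucp2, an uncoupling protein family member, was at 27, 21.1 and 21.3 CPM in the Het libraries and 11.3, 9.97 and 13.8 CPM in the KO libraries. It fell 1.97-fold (log2 fold change -0.98, SE 0.18, edgeR adjusted p = 0.0259), a call lost without Hetz204, Hetz245, Hetz249 or KO240 (edgeR adjusted p = 0.063 to 0.166) and under the fit of all 12 libraries. Cluh, which binds messenger RNAs of mitochondrial proteins, was at 168, 139.7 and 131 CPM in the Het libraries and 81.8, 99.7 and 79.7 CPM in the KO libraries. The fall of 1.68-fold (log2 fold change -0.75, SE 0.14, edgeR adjusted p = 0.0263) was lost without Hetz204, Hetz245, Hetz249 or KO240 (edgeR adjusted p = 0.0852 to 0.233). Mgarp, a mitochondrial transport protein, was at 8.49, 6.14 and 9.85 CPM in the Het libraries and 3.19, 3.15 and 2.25 CPM in the KO libraries. It fell 2.85-fold (log2 fold change -1.51, SE 0.27, edgeR adjusted p = 0.0185), a call lost without Hetz204, Hetz249 or KO240 (edgeR adjusted p = 0.0749 to 0.155) and under the fit of all 12 libraries. The 54 tested nuclear-encoded genes of oxidative phosphorylation had 0 calls by edgeR, 1 with an unadjusted p under 0.05, and a median of -0.03.

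Among regulators of RNA and the cytoskeleton, Igf2bp2, a messenger RNA-binding protein, was at 82.7, 64.7 and 84 CPM in the Het libraries and 40.1, 47 and 45.2 CPM in the KO libraries. It fell 1.75-fold (log2 fold change -0.81, SE 0.14, edgeR adjusted p = 0.0203), a call lost without Hetz204, Hetz249 or KO240 (edgeR adjusted p = 0.13 to 0.177). Lmcd1, a LIM domain cofactor, was at 55.8, 72.5 and 84.7 CPM in the Het libraries and 43.9, 33.1 and 38 CPM in the KO libraries. The fall of 1.85-fold (log2 fold change -0.89, SE 0.17, edgeR adjusted p = 0.0287) was lost without Hetz245, Hetz249 or KO240 (edgeR adjusted p = 0.0749 to 0.209). Arhgap20, a GTPase-activating protein, was at 40.8, 33.2 and 36.1 CPM in the Het libraries and 17.4, 24.1 and 13.1 CPM in the KO libraries. It fell 2.02-fold (log2 fold change -1.01, SE 0.20, edgeR adjusted p = 0.0349), a call lost without Hetz204, Hetz245, Hetz249 or KO240 (edgeR adjusted p = 0.0867 to 0.24) and under the fit of all 12 libraries. Mirg, a noncoding RNA that hosts miRNAs of the imprinted Dlk1-Dio3 region, was at 11.2, 15.4 and 14.7 CPM in the Het libraries and 7.47, 5.66 and 7.7 CPM in the KO libraries. The fall of 1.99-fold (log2 fold change -0.99, SE 0.21, edgeR adjusted p = 0.0459) was lost without Hetz204, Hetz245, Hetz249, KO240 or KO247 (edgeR adjusted p = 0.0646 to 0.241) and under limma voom, the fit of all 12 libraries. The 21st lower gene, Gm8251, is a model without a gene name.

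**Figure D4:**
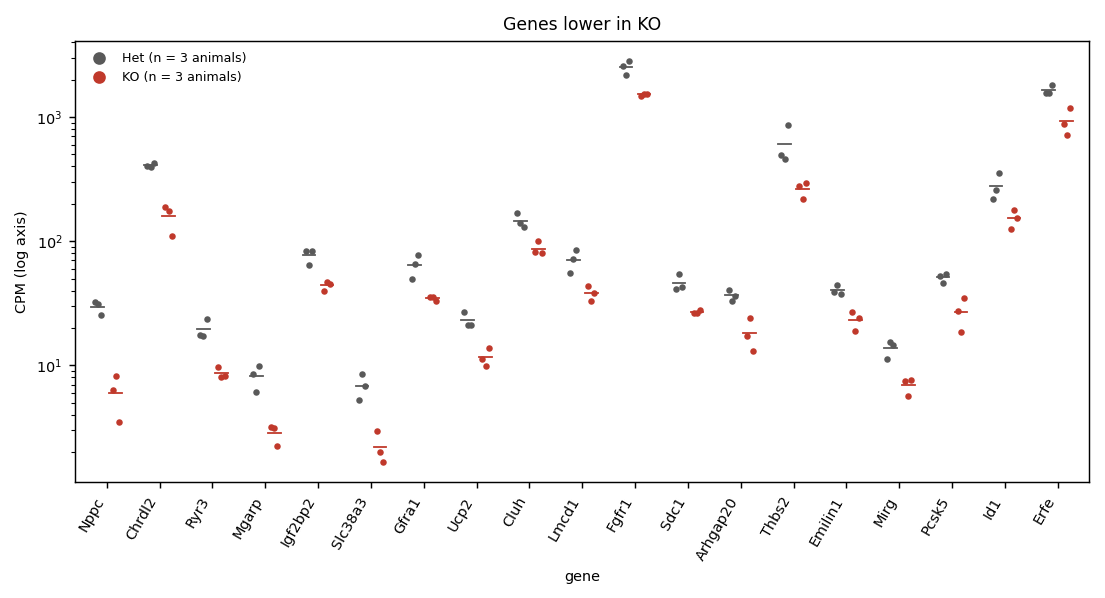
Level in CPM (vertical axis, logarithmic) of lower genes. Points are single animals, grey for Het and red for KO, and bars are group means. Nppc and Chrdl2 show the widest gaps, and in Thbs2 1 Het animal lies far above the other Het animals.

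Not every best known NRF2 target rose in these males. Of 45 tested, 20 were higher, 0 were lower and 25 did not pass, with a median of 0.59 over the list. Hmox1, heme oxygenase 1, was at 1775, 675 and 437 CPM in the Het libraries and 335, 563 and 144 CPM in the KO libraries. The means were 962 ± 714 CPM in Het and 347 ± 209.6 CPM in KO (SD, n = 3). Its log2 fold change was -1.47 (SE 0.79, edgeR adjusted p = 0.576), with the largest SE of the list. Gclm, the modifier subunit of the enzyme that starts glutathione synthesis, had a log2 fold change of -0.59 (SE 0.35, edgeR adjusted p = 0.576). Gclc, its catalytic subunit, was at 0.53 (SE 0.18, edgeR adjusted p = 0.23). Txnrd1, thioredoxin reductase, was at 0.44 (SE 0.20, edgeR adjusted p = 0.401) and Srxn1, sulfiredoxin, at 0.35 (SE 0.16, edgeR adjusted p = 0.396). For Ptgr1, prostaglandin reductase 1, the log2 fold change was 0.05 with a 95% interval from -0.43 to 0.52. These intervals leave room for moderate changes, and none of these genes is shown to be the same in both groups.

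Across the other lists, calls were scattered. Of 41 lists of pathways and functions, 19 held at least 1 called gene and 22 held none, and medians of the latter ran from -0.16 to 0.31. With 0.861% of all tested genes called, 0 calls in a list of this length is near the overall share. Notch2 was the 1 called gene among 29 tested of the Notch pathway, at 84.3, 90.2 and 71.9 CPM in the Het libraries and 131, 126 and 138 CPM in the KO libraries. It rose 1.6-fold (log2 fold change 0.68, SE 0.13, edgeR adjusted p = 0.0263), a call lost without Hetz204, Hetz245, Hetz249 or KO240 (edgeR adjusted p = 0.0615 to 0.222) and under the fit of all 12 libraries. The list's median was 0.14, and 6 of its tested genes had an unadjusted p under 0.05. Cryab, a small heat shock protein, was at 285, 348 and 309 CPM in the Het libraries and 544, 439.9 and 487 CPM in the KO libraries. The rise of 1.56-fold (log2 fold change 0.64, SE 0.13, edgeR adjusted p = 0.0449) was lost without Hetz204, Hetz245, Hetz249 or KO240 (edgeR adjusted p = 0.0942 to 0.357) and under RLE normalization and the fit of all 12 libraries. Another model covers 17% of its exonic bases. The 31 tested heat shock genes had 1 call, 6 with an unadjusted p under 0.05, and a median of 0.02. Itga8, an integrin subunit, was at 23.1, 24.7 and 22.7 CPM in the Het libraries and 47.3, 35.7 and 37 CPM in the KO libraries. It rose 1.7-fold (log2 fold change 0.77, SE 0.15, edgeR adjusted p = 0.0349), a call lost without Hetz204, Hetz245, Hetz249 or KO240 (edgeR adjusted p = 0.112 to 0.319) and under the fit of all 12 libraries, as the 1 called gene of 31 tested for integrins and basement membrane, with a median of 0.02. The genes of myogenic commitment and differentiation had a median of 0.31 with 0 of 24 called by edgeR and 4 with an unadjusted p under 0.05. Myog, which drives differentiation, was at 5, 10.7 and 6.64 CPM in the Het libraries and 24.4, 9.25 and 17.8 CPM in the KO libraries, and these values overlapped. Its log2 fold change was 1.19 (SE 0.36, edgeR adjusted p = 0.206), while the summed markers of myofibres stood at 164.04 CPM in KO240 and at most 77 CPM in the other 5 libraries. The 58 tested ribosomal proteins had a median of -0.11 with 7 members above 0, and the 33 tested proteasome subunits one of -0.08 with 5 above 0, both with 0 calls by edgeR and with 3 and 1 members at an unadjusted p under 0.05.

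**Figure D5:**
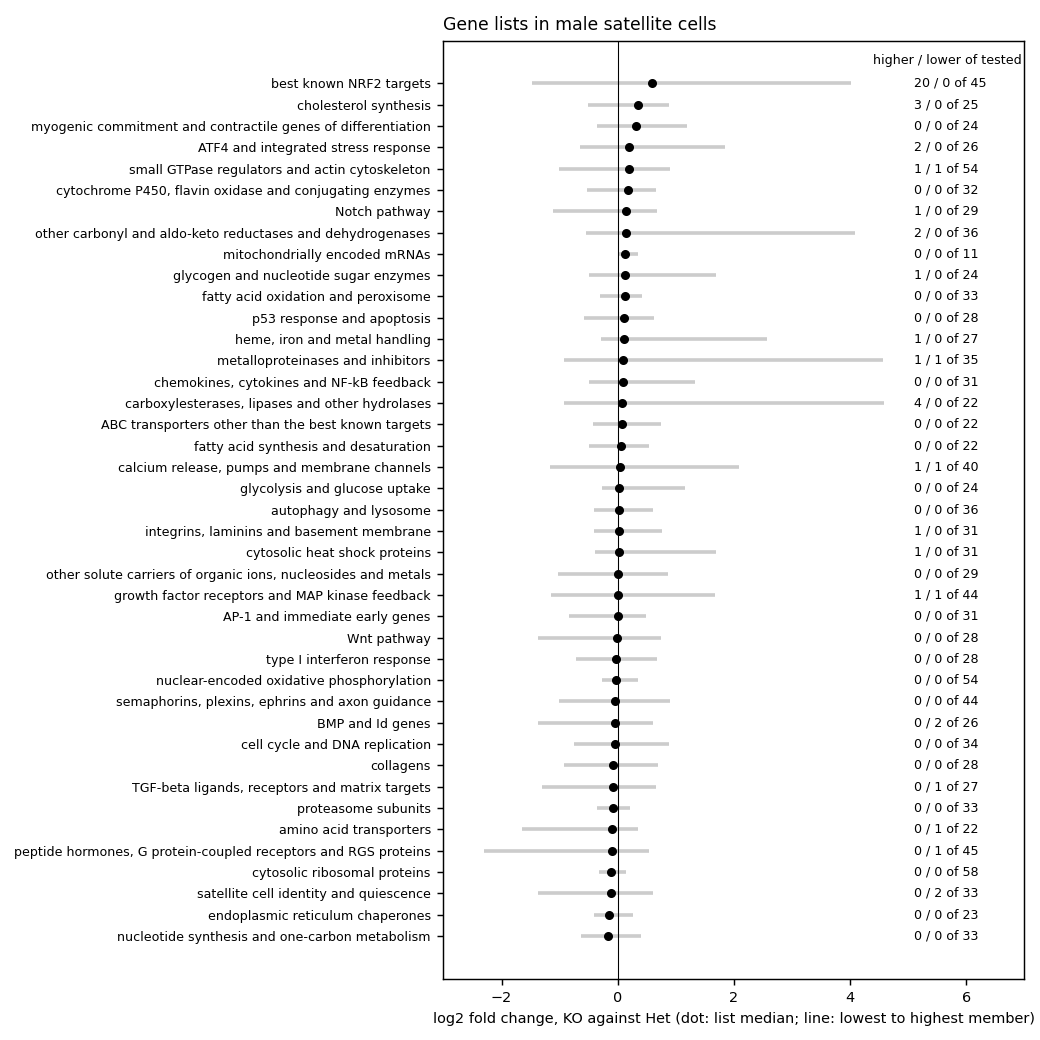
Log2 fold change between KO and Het (horizontal axis) for 41 gene lists (vertical axis). Dots are list medians, grey lines run from the lowest to the highest tested member, and numbers at the right give members called higher, called lower and tested. Medians lie between -0.16 and 0.35 except that of the best known NRF2 targets, at 0.59, while single members reach far outside.

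The values of the 3 KO animals were set side by side as a description, with no test of a difference between animals. Among the 94 higher genes, the KO library nearest to the Het group was KO255 in 47, KO247 in 39 and KO240 in 8, and among the 21 lower genes it was KO255 in 8, KO240 in 7 and KO247 in 6. Relative to the Het mean, on log2 of CPM plus 0.5, the 20 best known targets stood at a median of 1.82 in KO240, 1.87 in KO247 and 1.61 in KO255. The 36 other genes of at least 2-fold stood at 1.65, 1.51 and 1.4, and the 38 of under 2-fold at 0.8, 0.69 and 0.76. The lower genes stood at -0.92, -1.16 and -0.87. The order of the 3 libraries thus changed from set to set. KO247 and KO255 were the pair of libraries of a group that differed most, with a chi-square of 44.5 per degree of freedom against 15.8 to 24.3 for the other 5 pairs. Without KO255 the number of calls was 294 and without KO247 it was 229, of which 112 and 105 were among the 115. Without KO240 it was 41, without Hetz249 44, without Hetz204 55 and without Hetz245 67, and 41, 42, 52 and 55 of these were among the 115. The called genes that were at least 2-fold higher were the most durable, since 33 of the 36 genes called in all 11 alternatives were of this size.

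Some called genes were neighbours. There were 6 pairs within 100 kb of each other, all with both members higher. Pir, an iron-binding cofactor among the best known targets, ends 366 bases before the start of Vegfd on the same strand (chrX:164269371-164373011 and chrX:164373378-164402650). Gstp1 and Gstp2 lie 2299 bases apart, Gstm2 and Gstm1 25801 bases apart, and Adh7 and Adh1 27608 bases apart, and members of these families resemble each other in sequence, so that their counts are less certain. The other 2 pairs are a gene and an antisense model within it. Gm20658 (chr12:116102769-116138648, minus strand), named here after its values were seen, is annotated as an antisense transcript inside Vipr2 (chr12:116077726-116146261, plus strand), a receptor for vasoactive intestinal peptide. It was at 0.833, 0.16 and 0.218 CPM in the Het libraries and 62.3, 48.9 and 51.7 CPM in the KO libraries, and its rise of 146-fold (log2 fold change 7.19, SE 0.34, edgeR adjusted p = 3.72e-07) was the largest of all called genes. Vipr2 was at 3.71, 1.23 and 1.85 CPM in the Het libraries and 13.4, 10.5 and 9.24 CPM in the KO libraries. It rose 5-fold (log2 fold change 2.32, SE 0.34, edgeR adjusted p = 0.00485), a call lost without Hetz249 (edgeR adjusted p = 0.0682). No exonic bases of the 2 models overlap, but counting ignored strand, so reads of the 2 strands cannot be told apart. Gm14964 lies antisense within Nrxn2 in the same way, with 27.2% of its exonic bases shared with Nrxn2, and rose 22.3-fold (log2 fold change 4.48, SE 0.45, edgeR adjusted p = 0.000246).

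The same contrast in the 3 KO and 3 Het females was used only to ask where males differed. In 1 fit of all 12 libraries, the KO effect in males minus that in females was called for 1 of 14772 genes (0.00677%), with 1829 at an unadjusted p under 0.05. That gene was Aldh3a1, an aldehyde dehydrogenase, which was at 41.9, 29.3 and 22.3 CPM in the Het libraries and 126, 143 and 87 CPM in the KO libraries in males. It rose 3.82-fold (log2 fold change 1.93, SE 0.24, edgeR adjusted p = 0.00259) in males, and its difference between the sexes was -2.51 on the log2 scale (SE 0.34, edgeR adjusted p = 0.0319). In females, fitted alone, its log2 fold change was 4.44. Of the 36 higher genes of at least 2-fold outside the best known targets, 35 had a female estimate, 34 with the same sign and 25 also called in females fitted alone. Of the 38 under 2-fold, 25 had the same sign in females and 8 were called there, and of the 21 lower genes 19 and 8. The median log2 fold change of the larger higher genes was 1.85 in males and 1.93 in females. It was 0.77 and 0.15 for the 38 genes, and -0.92 and -0.72 for the lower genes. The same counts over all tested genes were not made, so how far these exceed the background is not known. There were 16 called genes with the opposite sign in females, among them Lrrc8a, Rap2b, Klf13, Phactr2, Elmod2, Sept10, Notch2, Cluh and Ucp2, but none of these differences between the sexes passed, the smallest adjusted p being 0.0732 by edgeR. For Sept10 the log2 fold change was 1.0 in males and -0.14 in females, with an adjusted p of 0.0854 for the difference. In this fit a difference between males and females is therefore not shown for any of the 74 higher genes outside the best known targets or for any of the 21 lower genes.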

How the data were processed

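The 6 male libraries and, for the comparison of the sexes, the 6 female libraries were grouped by the labels' sex and genotype, with 3 animals per group. The authors deposited whole counts of fragments for each Ensembl gene, made per the file headers with featureCounts 2.0.0 over the exons in release 99 of Ensembl GRCm38, unstranded, without reads mapped to several places or overlapping several genes. The deposited values are whole numbers rather than expected or estimated counts, so rounding was not needed. Per the submitters' processing notes, STAR, Subread and DESeq2 were used with mm10, and their versions are not given in the sources used here. Of 55385 genes, 55144 had a symbol by Ensembl identifier, and 0 columns belonged to other samples.

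Counts were tested with edgeR 4.0.16 in R 4.3.3 (TMM, filterByExpr with a minimum count of 10, glmQLFit with robust, glmQLFTest), with Benjamini-Hochberg adjustment over all tested genes and a threshold of 0.05. Means ± SD are over 3 animals and intervals are 95%. The floor of a library is 3 counts, 0.1603 to 0.2273 CPM. Depth was 13042039 to 19088651 counts. Alternatives were RLE normalization, no filter on low counts, DESeq2 1.42.0, voom of limma 3.58.1, a fit of all 12 libraries and leaving out each library. The script was tested on simulated data.

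The rule for named genes takes Keap1 and Nfe2l2, and, among called genes with a gene name, the 20 higher genes of smallest p outside the best known NRF2 targets, 15 of these under 2-fold, the 10 of lowest level, all lower genes up to 25, up to 4 called members of each of 49 gene lists, or the 1 of smallest p, and up to 8 genes per direction that differ between the sexes. The genes, lists and rule were chosen with earlier results of these data known, and no list was given a test of its own. Gene coordinates are 1-based in GRCm38. Some genes that the rule takes are not reported here.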

Additional observations from a re-analysis of the deposited data

Results flagged for a closer look

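The KO effect on Aldh3a1 differed between males and females by a test of the difference itself, at -2.51 on the log2 scale (male minus female, SE 0.34, edgeR adjusted p = 0.0319 over 14772 genes). On the scale of all 12 libraries, Aldh3a1 was at 43.8, 30.9 and 23.2 CPM in male Het and 131, 151 and 90.2 CPM in male KO. In females it was at 8.86, 12.9 and 12.6 CPM in Het and 216, 213 and 316 CPM in KO. The 2 sexes thus did not overlap in either genotype, with males higher in Het and lower in KO. The difference was called in 12 of 16 alternatives, whose adjusted p ran from 1.98e-24 to 0.114. The male and female counts were deposited as separate tables made with the same settings, and a batch that follows sex cannot be told apart from sex.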

How the results depend on the processing

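The 115 calls became 110 with RLE normalization, 101 with voom and 93 in the fit of all 12 libraries, and 264 with DESeq2 and 375 without the filter on low counts. DESeq2 and the unfiltered analysis both kept all 115, and the share of higher genes fell from 81.7% to 66.1% without the filter (248 of 375). Leaving out 1 library gave 41 to 294 calls. The single difference between the sexes became 358 without the filter, 243 with DESeq2 and 0 to 206 when 1 library was left out, with 206 without the female library Hetz165. The cause of these differences was not tested. The log2 fold change of Keap1 was 0.12 without Hetz204, and over the libraries left out it ran from -0.30 to 0.12. Mylpf and Alas2, list members that were not called, changed sign, Mylpf from 1.01 to -0.17 without KO240 (range -0.17 to 1.38 over the libraries left out), and Alas2 from 0.26 to -0.17 without Hetz249 and -0.49 without KO255 (range -0.49 to 1.0). None of the 115 calls changed sign under any alternative. No paired analysis was possible because each animal number in the labels belongs to 1 library and is shared by no 2 groups. Depth limits the genes at a few fragments per Het library, where only changes of several fold passed.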

Other observations

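Genes that the rule for named genes did not take were called as well and are given here after their values were seen. Mboat1, an acyltransferase of lysophospholipids, was at 35, 30.9 and 31.7 CPM in the Het libraries and 72.9, 44.9 and 73.6 CPM in the KO libraries. It rose 1.96-fold (log2 fold change 0.97, SE 0.18, edgeR adjusted p = 0.0259), a call lost without Hetz204, Hetz245, Hetz249 or KO240 (edgeR adjusted p = 0.118 to 0.206). Utrn, which encodes utrophin, the relative of dystrophin, was at 159.9, 131 and 156 CPM in the Het libraries and 249.5, 241 and 223 CPM in the KO libraries. It rose 1.6-fold (log2 fold change 0.68, SE 0.13, edgeR adjusted p = 0.0259), a call lost without Hetz204, Hetz245, Hetz249 or KO240 (edgeR adjusted p = 0.123 to 0.24). Cd47, the surface signal that protects cells from phagocytosis, was at 68.9, 70.1 and 70.3 CPM in the Het libraries and 121, 95.2 and 147 CPM in the KO libraries. The rise of 1.74-fold (log2 fold change 0.80, SE 0.15, edgeR adjusted p = 0.0296) was lost without Hetz204, Hetz245, Hetz249 or KO240 (edgeR adjusted p = 0.118 to 0.193) and under the fit of all 12 libraries. Slc25a37, mitoferrin 1, which imports iron into mitochondria, was at 22.1, 19.9 and 18.9 CPM in the Het libraries and 37.2, 29.7 and 41 CPM in the KO libraries. The rise of 1.77-fold (log2 fold change 0.83, SE 0.16, edgeR adjusted p = 0.0306) was lost without Hetz204, Hetz245, Hetz249 or KO240 (edgeR adjusted p = 0.12 to 0.223). Gsk3b, a kinase of glycogen synthase and of beta-catenin, was at 81.8, 102 and 83.1 CPM in the Het libraries and 146, 147 and 132 CPM in the KO libraries. It rose 1.59-fold (log2 fold change 0.67, SE 0.13, edgeR adjusted p = 0.0321), a call lost without Hetz204, Hetz249 or KO240 (edgeR adjusted p = 0.258 to 0.277) and under the fit of all 12 libraries. Itih5, a heavy chain that binds hyaluronan, was at 189.6, 233 and 245.5 CPM in the Het libraries and 348, 330.4 and 499.6 CPM in the KO libraries. The rise of 1.76-fold (log2 fold change 0.82, SE 0.17, edgeR adjusted p = 0.0423) was lost without Hetz204, Hetz245, Hetz249 or KO240 (edgeR adjusted p = 0.134 to 0.284) and under limma voom, the fit of all 12 libraries. Rab7b, a GTPase of endosomes, was at 16.9, 10.8 and 9.79 CPM in the Het libraries and 27.7, 24.7 and 25.8 CPM in the KO libraries. It rose 2.1-fold (log2 fold change 1.07, SE 0.20, edgeR adjusted p = 0.0287), a call lost without Hetz245, Hetz249 or KO240 (edgeR adjusted p = 0.13 to 0.201). The groups did not overlap in these 7 genes, which holds for all 115 called genes and for 17.3% of all tested genes. Each of the 7 calls depended on 3 or more single libraries.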
